A study of Mus musculus with 2 samples.

Results

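Genes for transporters of zinc, iron, manganese, copper and magnesium were described by their N6-methyladenosine (m6A) peaks in the mouse uterus. They are the protein-coding genes with a symbol starting Slc11a, Slc30a, Slc31a, Slc39a, Slc40a or Slc41a, and 32 of the 21900 protein-coding genes in the RefSeq table of GRCm38.p6 (the assembly that mm10 names) met that rule. A peak was counted for a gene when its summit lay anywhere in the gene span, introns included. Wild-type female mice of 6 to 8 weeks had been mated with fertile males, the day of the vaginal plug was called day 1, and the animals were sacrificed on day 4. The labels describe the cells as mixed and give neither strain nor number of animals. PolyA RNA of day 4 gave 1 sample immunoprecipitated with an anti-m6A antibody (IP) and 1 input sample without antibody. With 1 sample of each there is no replicate check, and all values below describe 1 list of 26584 peaks.

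m6A marks adenosines within mRNA and takes part in its decay, splicing and translation, and antibodies against it also bind the related methylated adenosine next to the mRNA cap. Metal ion transporters move ions that cannot cross membranes alone. ZIP proteins (Slc39) bring zinc, and some of them iron or manganese, into the cytosol from outside or from organelles, and ZnT proteins (Slc30) move zinc the opposite way. NRAMP proteins (Slc11) import iron and manganese with protons, ferroportin (Slc40a1) exports iron, CTR proteins (Slc31) carry copper and Slc41 proteins carry magnesium. The pregnant uterus lies between the mother's supply of these ions and the embryo.

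Fold enrichment is the authors' peak value, the IP fragments at the summit (pileup) plus 1 over the background plus 1, and it is used here only within this list. Brackets after a fold give the 95% exact Poisson interval of the pileup with the background taken as known, which covers counting error only. All 26584 peak names hold the string D8NegIP-Posinput, which does not match the labelled day. It is therefore unsettled whether the list is that of the day 4 IP, and whether the labelled input served as background. Peaks lay in 7 of 7 stromal, 4 of 5 epithelial, 4 of 4 smooth muscle and 3 of 3 endothelial markers, in 2 of 4 leukocyte, 1 of 3 red blood cell and 0 of 3 preimplantation embryo markers, and in 2 of 5 enterocyte and liver markers. The last 2 were the liver genes Alb, with 8.67, and Apoa1, with 25.2. Over all protein-coding genes 44.9% had a peak, and these small counts are not read as showing which cell types were present. In such mixed tissue fewer cells of a type and less RNA per cell cannot be told apart, and a gene without a peak may have carried no mark or too few fragments. RNA levels were not analysed here.

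Of the 32 transporter genes, 20 had at least 1 peak (62.5%, 95% Wilson interval 45.3 to 77.1), against 9831 of all 21900 protein-coding genes (44.9%). The interval treats genes as independent draws, and its lower bound lies close to the share of all genes. The transporter genes had a median span of 23038 bp, longer than the 17146 bp of all protein-coding genes, and longer genes more often had a peak. Below 10 kb, 4 of 8 transporter genes had a peak, against 27.3% of all genes of that span. Between 10 and 100 kb the count was 13 of 20, against 51.5%, and above 100 kb it was 3 of 4, against 70.8%. Under stricter or looser rules the counts were 20 of 32, against 41.3% of all genes, with −log10 q of at least 5, 20, against 43.9%, with a fold of at least 4, and 19, against 39.3%, with a pileup of at least 10. They were 20, against 40.9%, with summits in several genes left out, 20, against 45.3%, with any overlap of peak and span, 20, against 44.9%, with an overlap of 50%, and 21, against 46.9%, with spans extended by 1000 bp. No test of the share was made, and it is not read as particular to these genes.

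The 20 genes held 35 peaks. Of them, 9 genes had 1 peak, 8 had 2, 2 had 3 and 1 had 4, so that 11 had more than 1, and among all protein-coding genes with a peak 58.3% had more than 1. The pileup at the 35 summits had a median of 15 fragments and ranged from 6 to 87, and 5 summits had fewer than 10. Over the 20 genes the strongest peak had a median fold enrichment of 8.67, against 9.36 over all protein-coding genes with a peak. Of the 20, 9 lay above that median of 9.36 and 6 above the upper quartile of 13.1. The strength thus spread around that of other genes, and the 6 highest were Slc39a7, Slc30a4, Slc39a10, Slc39a6, Slc30a1 and Slc39a9, all of them zinc transporter genes. This order depends on the 1 added to pileup and background: with nothing added the 6 highest were Slc39a7 at 46.2, Slc30a4 at 29.9, Slc11a1 at 24.3, Slc39a10 at 22.7, Slc41a2 at 22.5 and Slc39a6 at 22.1, which include a gene of iron and manganese transport and one of magnesium transport. Zinc transporter genes also made up 23 of the 32 genes and 15 of the 20 with a peak.

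**Figure D1:**
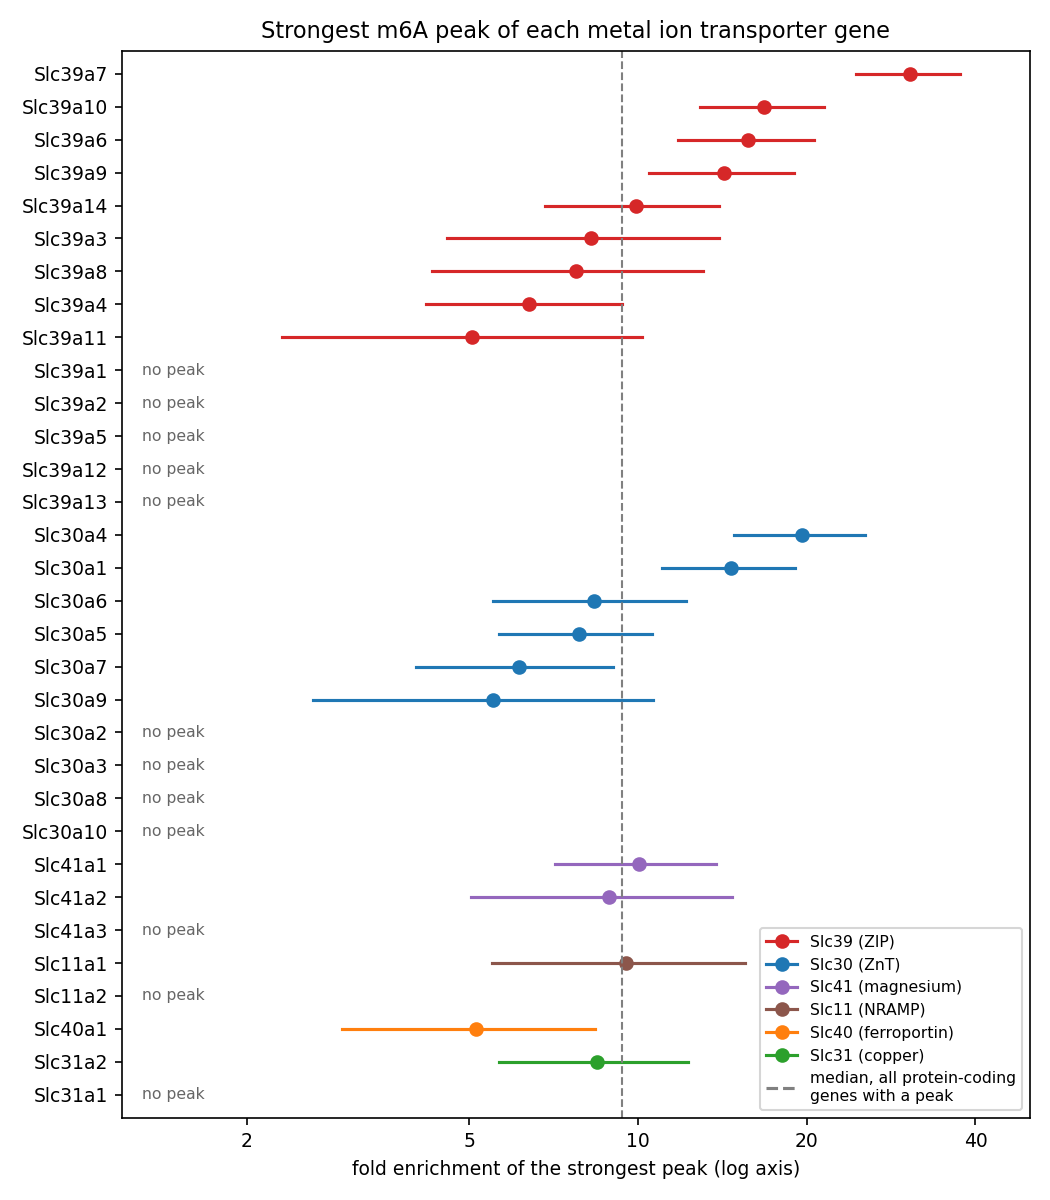
Fold enrichment of the strongest m6A peak (horizontal log axis) for each of the 32 transporter genes, in blocks by family. Points are the authors' fold enrichments and bars the 95% Poisson intervals, the dashed line is the median of 9.36 over all protein-coding genes with a peak, and 12 genes have no peak; the 4 highest ZIP genes and the 2 highest ZnT genes lie wholly to the right of the line.

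The strongest peak of the whole group was at the start of Slc39a7, which encodes ZIP7, the transporter that releases zinc from the endoplasmic reticulum. Peaks at the start of Slc39a9 (ZIP9, a zinc transporter of the Golgi) and of Slc41a1 (a sodium-dependent magnesium exporter) also reached into the RefSeq promoter windows of these genes. The windows are printed because they show where each of these peaks begins relative to the transcript start. Each runs 5′ to 3′ on the transcript's strand, from 250 bases before the RefSeq start to 30 bases after it (GRCm38.p6), with the bases inside the deposited peak in capitals. The stretch of Slc39a7 is chr17:34031661-34031940 on the minus strand, that of Slc39a9 is chr12:80643965-80644244 on the plus strand, and that of Slc41a1 is chr1:131827762-131828041 on the plus strand.
Slc39a7: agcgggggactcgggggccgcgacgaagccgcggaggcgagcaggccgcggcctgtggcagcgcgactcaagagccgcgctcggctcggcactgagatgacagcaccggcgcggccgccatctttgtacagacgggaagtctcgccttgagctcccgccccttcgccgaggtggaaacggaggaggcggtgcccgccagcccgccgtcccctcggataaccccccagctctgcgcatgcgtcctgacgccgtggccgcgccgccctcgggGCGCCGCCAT
Slc39a9: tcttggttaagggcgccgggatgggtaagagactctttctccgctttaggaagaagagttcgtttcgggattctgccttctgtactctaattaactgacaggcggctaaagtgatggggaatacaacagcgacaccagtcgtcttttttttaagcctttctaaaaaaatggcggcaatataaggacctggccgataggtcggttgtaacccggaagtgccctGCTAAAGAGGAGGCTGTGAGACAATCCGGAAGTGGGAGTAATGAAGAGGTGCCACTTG
Slc41a1: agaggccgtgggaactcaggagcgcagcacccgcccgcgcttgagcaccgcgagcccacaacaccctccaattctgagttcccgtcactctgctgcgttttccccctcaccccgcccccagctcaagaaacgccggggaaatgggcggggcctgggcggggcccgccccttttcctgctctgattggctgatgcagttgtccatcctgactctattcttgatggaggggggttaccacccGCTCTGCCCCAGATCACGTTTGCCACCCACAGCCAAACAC
In Slc39a7 the capitals begin at base 21 of the transcript, so the peak lay wholly inside it. In Slc39a9 they begin 28 bases before the start of this window's transcript, and in Slc41a1 10 bases before it. The span of Slc39a9 starts further upstream than that transcript, so its peak lies inside the span, with the summit 156 bp after the transcript start and 488 bp after the span start. Distances from a start elsewhere in the text are counted from the span end on the transcript's 5′ side. For Slc30a9 (a mitochondrial zinc transporter) the peak begins at base 42 of the transcript, beyond such a stretch. Of the 280 bases of each printed window, 250 lie before the transcript start and are not part of that transcript. The letters GGAC, a common core of m6A sites, were searched on both strands, of which only 1 is the transcript's. They occurred 1 time on the transcript's strand of Slc39a7 and 1 time on that of Slc39a9, with 0 occurrences on either strand within the capitals, and 0 times on that of Slc41a1. On the other strand they occurred 2, 0 and 1 times in the same order of genes. The capitals are only 10 of the 1739 bases of the peak in Slc39a7, 58 of 635 in Slc39a9 and 40 of 200 in Slc41a1. The rest of each peak was not searched, so the counts cannot show whether these peaks hold GGAC. Of the 32851 RefSeq windows cut to the same length, 62.5% held GGAC on the transcript's strand and 85.6% on at least 1 strand, so its presence sets no window apart.

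Slc39a7 had 2 peaks in a span of only 3425 bp. The peak at its start, chr17:34029932-34031670, was 1739 bp wide and had a fold enrichment of 30.5 (24.5 to 37.6), from 87 IP fragments over a background of 1.88. The summit lay 203 bp after the start of the span. By its strongest peak Slc39a7 held rank 58 among 9831 protein-coding genes. Its other peak, chr17:34028377-34029098, had 9.04 (6.71 to 11.9) from 48 fragments, with the summit 495 bp before the transcript end. The intervals of these peaks do not overlap. Together they covered 71.9% of the span, at percentile 99.1 of this share among protein-coding genes that had peaks. Exons were not used here, so the widths include any intron between methylated exons.

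Slc39a7 belongs to the LIV-1 subfamily of ZIP genes, named after the protein of Slc39a6. Of the 9 LIV-1 genes, 6 had a peak (66.7%, Wilson interval 35.4 to 87.9), against 44.9% of all protein-coding genes. The Wilson interval includes that share, and the count was not tested. Slc39a10, which encodes the plasma membrane zinc importer ZIP10, had 16.8 (12.9 to 21.5) from 61 fragments at chr1:46835158-46836215, 28000 bp before the transcript end of its 118233 bp span. A weaker peak nearer the end had 6.501 (3.68 to 10.8), and the intervals of the 2 do not overlap. Slc39a6 encodes ZIP6, a zinc importer of the plasma membrane that is induced by oestrogen in human breast cancer cells. It had the most peaks of the group, 4, on chromosome 18. From the low-coordinate end of its span the folds were 5.13 (2.90 to 8.51), 8.16 (4.79 to 13.1), 15.7 (11.8 to 20.6) and 5.09 (2.52 to 9.48). The strongest of these 4 rested on 51 fragments and the last on 8, and the interval of the strongest overlaps that of the second.

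Lower values were found in the LIV-1 genes Slc39a14, Slc39a8 and Slc39a4. Slc39a14 encodes ZIP14, a carrier of zinc, manganese and iron not bound to transferrin, and had 1 peak of 9.91 (6.83 to 13.9), with its summit 2888 bp from the low-coordinate end of the span. Slc39a8 encodes the related ZIP8, a carrier of zinc and manganese. Its 3 peaks had 7.74 (4.28 to 13.1), 6.01 (3.17 to 10.6) and 2.40 (1.47 to 3.72) in transcript order. The last, 1063 bp before the transcript end, had the highest background of the 35 peaks, 6.92, and the lowest −log10 q, 1.69. Slc39a4, the gene of the main intestinal zinc importer, had 1 peak of 6.37 (4.18 to 9.36).

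In the other ZIP subfamilies, Slc39a9 had 2 peaks at opposite ends of a span of 39460 bp. The one near the transcript end, chr12:80679544-80680153, had 14.2 (10.5 to 19.0) from 45 fragments, and the one at the start, chr12:80644187-80644821, had 11.7 (7.70 to 17.0) from 25 fragments. Their intervals overlap. Slc39a3, the gene of the plasma membrane importer ZIP3, had 8.24 (4.57 to 13.9) and 4.40 (2.38 to 7.58). Slc39a11, the mouse gene of the gufA-like ZIP subfamily, had 3 weak peaks deep in a span of 405350 bp. They had 5.06 (2.31 to 10.2) from 6 fragments, at 74.9% of the span from the start, and 4.82 (2.78 to 7.86) from 14 and 4.25 (2.02 to 8.18) from 7, at 50.1% and 49.99%. The strongest of these lay inside the span of the long non-coding RNA gene Gm51926 as well.

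**Figure D2:**
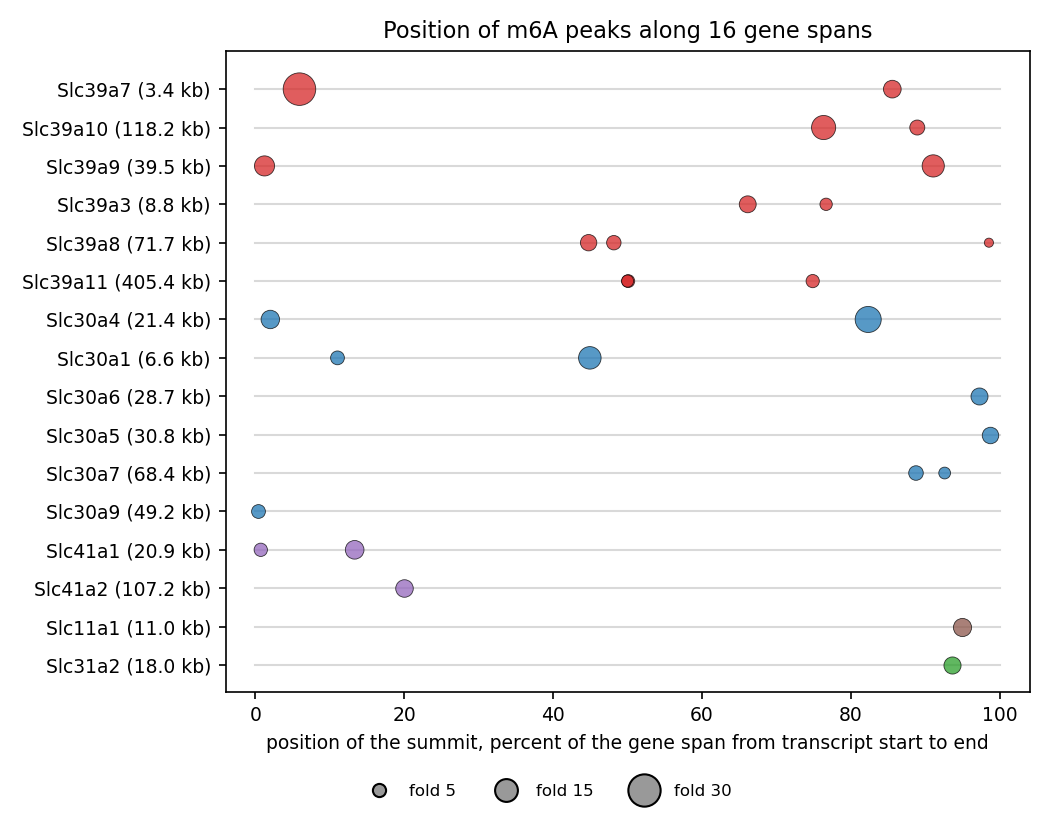
Summits of the 28 peaks in the 16 transporter genes with a known strand, placed by percent of the gene span from transcript start (0) to end (100), with the circle area proportional to fold enrichment and the span length beside each symbol. Slc39a7, Slc39a9 and Slc30a4 have a peak toward both ends. Slc30a5, Slc30a6, Slc30a7, Slc11a1 and Slc31a2 have peaks only near the end. Slc30a9 and both Slc41 genes have them only in the first part.

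The ZnT genes had peaks in 6 of 10 cases (60%, Wilson interval 31.3 to 83.2), with 9 peaks, against 44.9% of all protein-coding genes. The Wilson interval includes that share, and the count was not tested. Slc30a4 encodes ZnT4, the vesicular zinc transporter that is defective in lethal milk mice. Its peak at chr2:122684852-122685438, 3792 bp before the transcript end, had 19.6 (14.8 to 25.5) from 54 fragments. A weaker peak had its summit 432 bp after the start and a fold of 9.81 (6.30 to 14.6), and these intervals do not overlap. Slc30a1 encodes ZnT1, the exporter of zinc across the plasma membrane. It had 14.6 (11.03 to 19.1) from 53 fragments at chr1:191908697-191909922, a peak of 1226 bp in a span of 6552 bp. A second peak closer to the start, of 5.49 (2.81 to 9.92), shared its summit with the long non-coding RNA gene 1700034H15Rik, and its interval does not overlap that of the stronger peak. With the peaks of Slc39a7 and Slc39a10, those of Slc30a4 and Slc30a1 were the 4 cases, among the 11 genes with more than 1 peak, in which the intervals of the 2 strongest peaks did not overlap.

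ZnT5, ZnT6 and ZnT7 supply zinc to enzymes of the early secretory pathway, ZnT5 and ZnT6 as a heteromer. Their genes carried peaks only in the last 20% of the span, as did Slc11a1 and Slc31a2. Of all peaks in protein-coding genes with known strand, 42.8% lay in that part. Slc30a5 had 7.84 (5.66 to 10.6) at 412 bp from the end, and Slc30a6 had 8.35 (5.52 to 12.2) at 790 bp from it. Slc30a7 had 6.13 (4.02 to 9.01) at 7718 bp and 4.00 (2.26 to 6.64) at 5083 bp from the end, the weaker one within the pseudogene Gm6649. The intervals of the strongest peaks of these 3 genes overlap. Slc30a9 had 1 peak at its start, of 5.52 (2.63 to 10.6) from 7 fragments, and was the only one of the 20 genes to lose its peak when at least 10 fragments were required.

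Among the magnesium, iron and copper transporter genes, 2 of 3 Slc41, 1 of 2 Slc11, 1 of 1 Slc40 and 1 of 2 Slc31 genes had a peak. Their folds were at most 10.0234. Of the zinc transporter genes 15 of 23 had a peak, and of all protein-coding genes 44.9%. With nothing added to pileup and background, Slc11a1 and Slc41a2, both with a background of 0.577, had 24.3 and 22.5. Slc41a1 had 10.0234 (7.10 to 13.8) from 36 fragments at chr1:131829849-131830961, with the summit 2782 bp after the start, and 5.11 (2.69 to 9.004) from 10 fragments at the start itself. Slc41a2, also a magnesium transporter gene, had 8.88 (5.02 to 14.7) from 13 fragments, 21468 bp into a span of 107190 bp. Slc11a1 encodes NRAMP1, which withdraws iron and manganese from the phagosomes of macrophages. It had 9.51 (5.49 to 15.5) from 14 fragments, 566 bp before the transcript end. The macrophage genes Adgre1 and C1qa also had a peak each, of 9.51 and 8.96, while Cd68 and Ptprc had none, and their part in the Slc11a1 value was not tested. Slc40a1, the gene of the iron exporter ferroportin, had 5.13 (2.96 to 8.38) from 14 fragments at chr1:45911061-45911599. Slc31a2, the gene of the endosomal copper protein CTR2, had 8.46 (5.63 to 12.2) from 26 fragments in a peak of 1278 bp, with the summit 1155 bp before the transcript end.

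**Figure D3:**
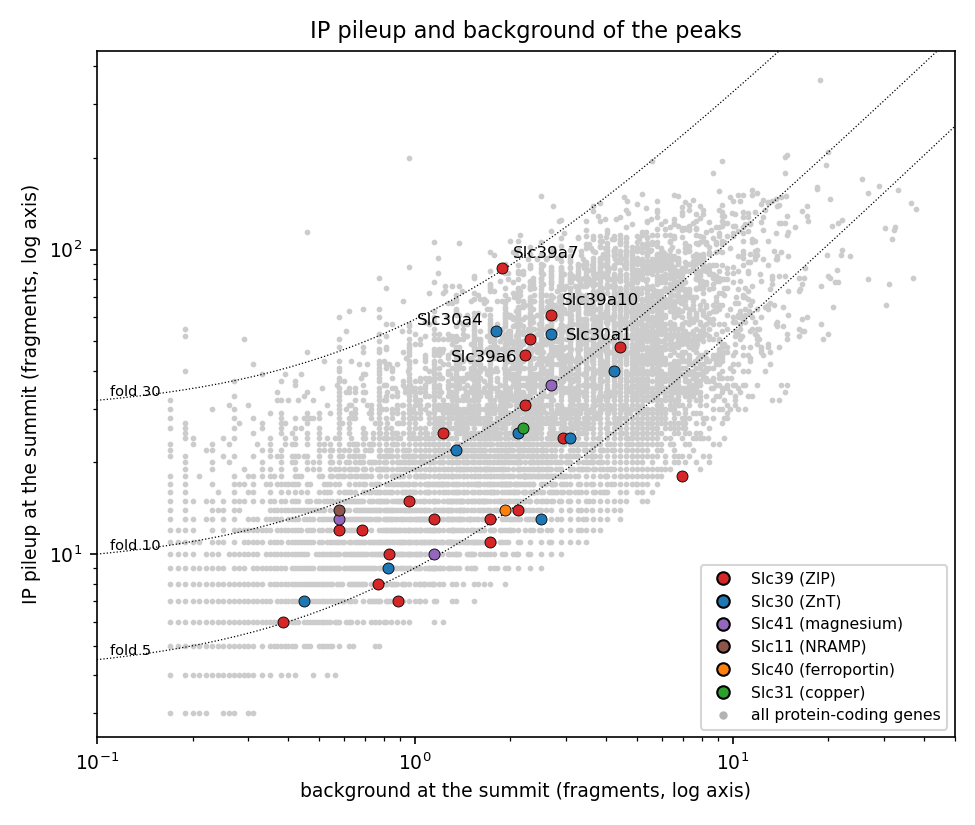
IP pileup at the summit (vertical log axis, fragments) against background (horizontal log axis, fragments) for the 35 transporter gene peaks, coloured by family, over the peaks of all protein-coding genes in grey; dotted curves mark fold enrichments of 5, 10 and 30. Slc39a7 reaches 87 fragments over a background of 1.88 and lies on the curve of 30, and most other transporter peaks lie between the curves of 5 and 10.

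No peak was found in 12 genes. Among the ZIP genes these were Slc39a1, Slc39a2, Slc39a5, Slc39a12 and Slc39a13. Among the ZnT genes they were Slc30a2, Slc30a3 and Slc30a8, the last 2 known from synaptic vesicles and from insulin granules of the pancreas, and Slc30a10, whose protein exports manganese. The others were Slc11a2 (DMT1, the iron importer of the gut and of endosomes), Slc31a1 (CTR1, the copper importer of the plasma membrane) and Slc41a3. For copper and for NRAMP proteins, 1 gene of each pair therefore had a peak. The 12 genes had a median span of 18027 bp, against 26294.5 bp in the 20 with a peak, and over all protein-coding genes those without a peak were also shorter, 10864 bp against 27427 bp with one. Slc39a1 has a pseudogene copy, Slc39a1-ps, which had 0 peaks. Within 5000 bp outside the spans of the 32 genes lay 5 peaks, all 5 in the span of another gene. They included one of 9.96 in Cdc26 beyond the end of Slc31a1 and one of 2.94 in Nabp2, 470 bp from Slc39a5.

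The position of the peaks along the transcript was set beside that in all protein-coding genes. Strand was known for 16 of the 20 genes with a peak, with 28 peaks. Of these, 7 lay in the first 20% of the span (25%, against 17.2% of 18828 peaks in all protein-coding genes with known strand), 11 in the last 20% (39.3%, against 42.8%) and 10 between (35.7%, against 39.9%). Within 500 bp of the start lay 5 summits (17.9%, against 6.496%), and within 500 bp of the end 2 (7.14%, against 5.58%). The 5 near a start belonged to 5 genes, Slc30a4, Slc30a9, Slc39a7, Slc39a9 and Slc41a1, 3 of them printed above. These are small counts and no test of them was made.

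Beside other solute carriers, the transporter genes had peaks in 20 of 32 cases (62.5%), against 151 of 343 other Slc genes (44.0%, 38.9 to 49.3) and 21 of 47 mitochondrial carrier genes of the Slc25 family (44.7%, 31.4 to 58.8). The intervals of the transporter genes and of the other Slc genes overlap, but they treat genes as independent draws. Their overlap is not a test, and whether the shares differ was not tested. The median strongest fold was 8.67 in the transporter genes, against 8.73 in the other Slc genes and 7.69 in Slc25. The highest value in the other Slc genes was 20.7, below the 30.5 of Slc39a7. Peaks per gene with a peak were 1.75 in the transporter genes and 1.74 in the other Slc genes.

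Of 52 further genes of metal handling, 32 had a peak (61.5%, against 44.9% of all protein-coding genes), with a median strongest fold of 9.87. With summits in several genes left out, 26 of the 52 had a peak, against 40.9% of all protein-coding genes. The list was chosen with earlier results of these data known, and genes of like span were not compared. No test of this share was made, and it is not read as particular to these genes. For zinc, 2 of 5 genes had a peak. Mtf1 encodes the transcription factor that senses zinc and switches on metallothionein and ZnT1 genes, and had 5 peaks, the strongest of 26.0061 (20.5 to 32.5) from 75 fragments. Mt1, a metallothionein gene, had 11.6 (8.49 to 15.5), and Mt2, Mt3 and Tmem163 had no peak. The sensor gene and 2 of its known targets, Mt1 and Slc30a1, thus had peaks, while the target gene Mt2 had none.

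Iron genes had a peak in 16 of 22 cases, against 44.9% of all protein-coding genes. This count includes genes whose only peak has its summit also in another gene, and it was not tested. The ferritin heavy chain gene Fth1 had 20.9 (16.7 to 25.8), against 6.86 (5.15 to 8.95) in the light chain gene Ftl1, and these intervals do not overlap. Reads of both ferritin genes can be shared with processed pseudogenes. Ncoa4, the receptor that delivers ferritin to lysosomes, had 13.4 (10.5 to 16.9), and the iron chaperone gene Pcbp1 had 13.3 (11.2 to 15.6) from 145 fragments. The metalloreductase gene Steap4 had 15.4 (10.99 to 20.9) and Steap3 had 11.2 (7.14 to 16.9). Fbxl5, the iron-sensing ubiquitin ligase subunit, had 10.7 (8.08 to 14.0), and its substrate gene Ireb2, an iron regulatory protein, had 4.98 (3.32 to 7.21). The mitochondrial iron importer genes Slc25a37 and Slc25a28 had 10.6 (7.18 to 15.2) and 10.1 (7.39 to 13.5). The remaining 6, Flvcr1, Cp, Steap2, Hfe, Heph and Pcbp2, lay between 9.66 and 5.69, the summits of Flvcr1, Cp, Steap2 and Heph also in another gene. The transferrin receptor genes Tfrc and Tfr2, and Trf, Hamp, Hjv and Aco1, had no peak.

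Copper genes had a peak in 5 of 8 cases. For these and for the magnesium and manganese genes below, the share over all protein-coding genes was 44.9%. No count by metal was tested. The highest was 27.6 (22.1 to 34.1) in Commd1, but its summit also lay in Zrsr1, a gene within the Commd1 span, so the peak cannot be given to either. The copper pump gene Atp7a had 9.04 (5.31 to 14.6), while Atp7b and the chaperone genes Atox1 and Ccs had none. Sco2, Sco1 and Cox17, genes of copper delivery to cytochrome oxidase, had 11.9, 7.56 and 6.502, and the Sco2 summit also lay in Ncaph2 and Tymp. Magnesium genes had a peak in 7 of 13 cases. They included Cnnm2 at 25.0045 (18.6 to 32.9) and Cnnm3 at 18.7 (12.9 to 26.1), genes of CNNM proteins of magnesium homeostasis, and the channel kinase gene Trpm6 at 14.9 (11.1 to 19.4), while Trpm7 had none. Mrs2, the gene of the mitochondrial magnesium channel, had 10.9 (7.73 to 14.9) at a summit that also lay in Gpld1. Cnnm4, Nipa1 and Mmgt2 lay between 7.89 and 7.59, the Nipa1 summit also in A230056P14Rik. Genes listed under manganese had a peak in 2 of 4 cases, Atp13a1 with 5.13 (2.96 to 8.38) and Atp2c1, the gene of the calcium and manganese pump of the Golgi, with 4.53 (2.78 to 7.03).

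**Figure D4:**
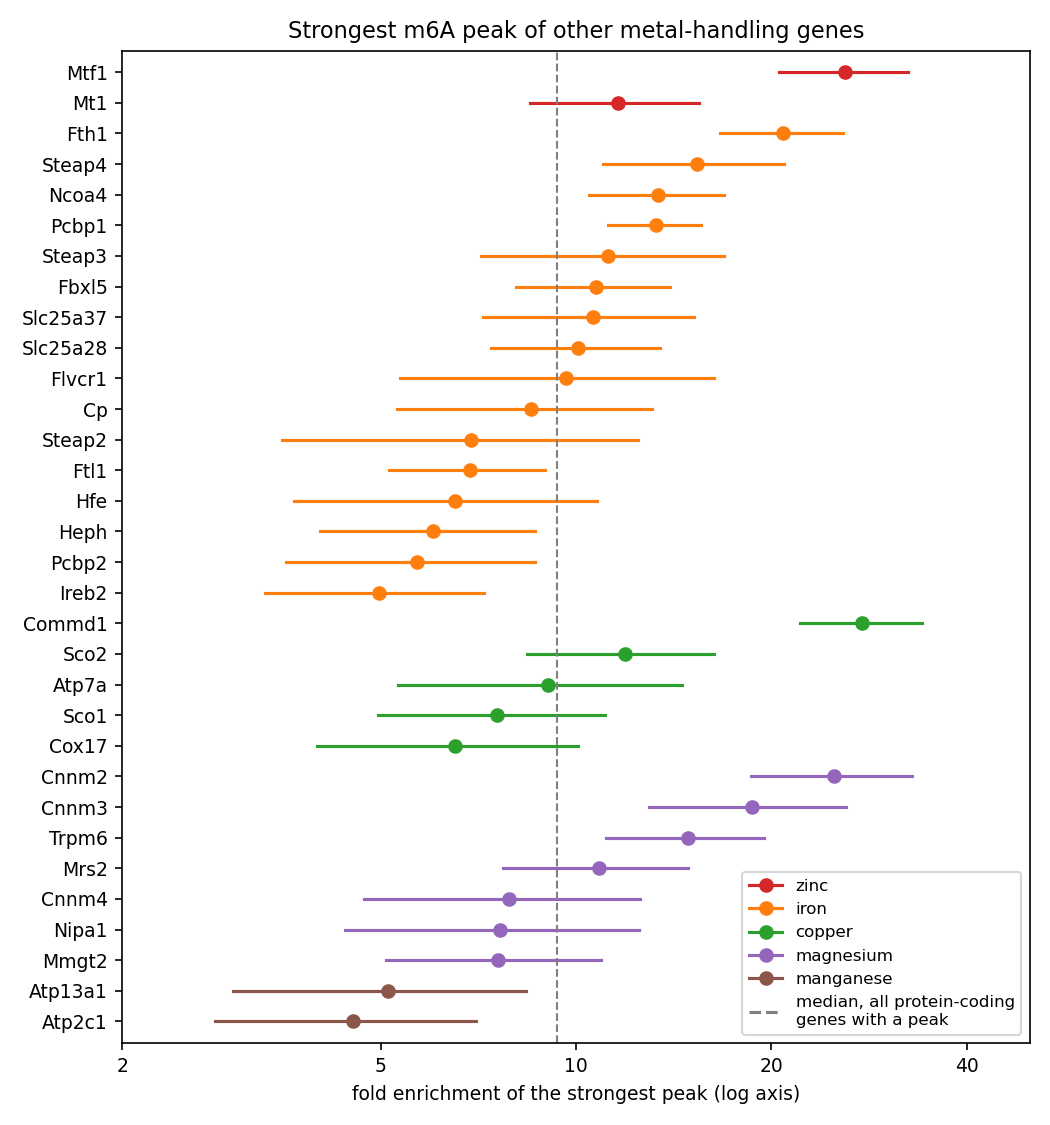
Fold enrichment of the strongest m6A peak (horizontal log axis) with 95% Poisson intervals for the 32 other metal-handling genes with a peak, in blocks by metal; the dashed line is the median of 9.36 over all protein-coding genes with a peak. Mtf1, Fth1, Commd1 and Cnnm2 lead the zinc, iron, copper and magnesium blocks, and both manganese genes lie below the line. The Commd1 summit also lies in Zrsr1, and that of Sco2, the next in the copper block, in Ncaph2 and Tymp.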

How the data were processed

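The data were 1 list of m6A peaks deposited with the IP sample. The input sample had no file in this work. Per the submitters' processing notes, reads were handled with HISAT2 2.2.1 and MACS3 3.0.0a7 on mm10; options are not given in the sources at hand. The deposited fold enrichment is a ratio of IP pileup to background, 1 added to each. The deposited p-value and q-value are −log10, with a lowest −log10 q of 1.31. The deposited score is 10 times −log10 q with decimals dropped.

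Pileup and background were solved from the deposited fold enrichment and Poisson p-value. For 99.97% of the 26584 peaks, and for all 35 described here, the solved pileup was a whole number (tolerance 0.05 of the distance to the next whole value). Tested on 2000 simulated peaks, the solver returned the true pileup for 99.95%. These peaks were made with the formulas that the solver inverts, so the test does not check how the deposited values were computed. Pileups had a median of 18 fragments (range 3 to 361), and 20.9% of peaks had fewer than 10. Exact Poisson intervals at the 95% level leave out all but counting error, and PCR copies of a fragment count as separate draws in them. Wilson intervals at the 95% level treat genes as independent draws and hold no error of the fragment counts.

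Gene spans came from RefSeq (49997 genes, GRCm38.p6), without exons. Strand was taken from the RefSeq promoter table, which holds 26 of the 32 genes; Slc11a2, Slc30a8, Slc39a4, Slc39a6, Slc39a14 and Slc40a1 were described from the span ends only. Peaks carry no strand, so antisense transcripts were not told apart. Summits shared with another gene, 3 of 35, were counted and named. The design foresaw exons, proteins and sequence within peaks, which were not analysed here. All genes of the rule are accounted for, and values are given for each with a peak. Genes of the metal-handling list with a peak are given with their own value or within a stated range. The members and lists were chosen with earlier results of these data known. No test was made, as there is 1 sample of each kind. Alternatives were −log10 q of at least 5, a fold of at least 4, a pileup of at least 10, shared summits counted for no gene, any or 50% overlap with the span, spans extended by 1000 bp, the median over a gene's peaks, the peak with the highest −log10 q and no pseudocount. Scripts ran under Python 3.11.15 with pandas 2.3.3, statsmodels 0.14.6, scipy 1.17.1, matplotlib 3.10.9 and numpy 2.4.6.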

Additional observations from a re-analysis of the deposited data

How the results depend on the processing

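The number of transporter genes with a peak was 20 under 5 of the 7 alternative rules for counting peaks. It was 19 with a pileup of at least 10, without Slc30a9, and 21 with spans extended by 1000 bp, which added the Nabp2 peak to Slc39a5. The number of their peaks ranged from 28, with −log10 q of at least 5, to 36. The share of all protein-coding genes with a peak was 41.3% with −log10 q of at least 5, 43.9% with a fold of at least 4, 39.3% with a pileup of at least 10, 40.9% with shared summits counted for no gene and 46.9% with extended spans. The median strongest fold of the transporter genes lay between 8.09 and 8.88, except with nothing added to pileup and background, where it was 16.6. The other metal-handling genes with a peak numbered 26 with shared summits counted for no gene and 32 under the other 6 rules. Taking the median over a gene's peaks moved 5 of 20 genes outside the interval of their strongest peak. Adding nothing moved 12, among them Slc11a1 to 24.3 and Slc41a2 to 22.5, above Slc30a1 and Slc39a9. The intervals include the added 1, and leaving it out raises every fold, so these 12 moves compare values on different scales. No median over all protein-coding genes is given for the scale with nothing added. No paired analysis was possible because there is 1 sample of each kind. Depth limits the weakest values, since 5 of the 35 peaks rest on fewer than 10 fragments, and without replicates the spread between animals is unknown.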
